A study of Homo sapiens with 8 samples.

Results

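Saos-2 is an established human osteosarcoma cell line, labelled p53-null, and the members described here are 10 genes for matrix proteases, their receptor and their inhibitors. They were chosen by name as MMP1, MMP2, MMP9, MMP14, PLAU, PLAUR, ADAMTS1, TIMP1, TIMP2 and TIMP3, through every probe set that the platform annotation maps to that gene alone. This gave 24 of the 41091 probe sets with 1 gene symbol, and 10 of 19775 genes. The cells were left untreated (3 arrays, replicates 1, 2 and 3), treated with a compound labelled Prima for 6 h (3 arrays, replicates 1, 2 and 3) or treated with it for 12 h (2 arrays, replicates 1 and 3). All arrays come from the same line. The labels give no dose, no vehicle control and no separate cultures, so the p-values measure the spread between these arrays, which may be technical. The design text asks how the compound affects the whole transcriptome of cells without p53. Values are MAS5 signals on a linear scale, in which 1 number summarises the probes of a probe set and each array is scaled to a trimmed mean of 100.01.

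Matrix metalloproteinases are zinc endopeptidases that are made as inactive precursors and cut collagens and other proteins of the extracellular matrix. TIMP proteins bind their active site and block it. MMP14 sits in the plasma membrane and, with TIMP2 as a bridge, activates the precursor of MMP2. Urokinase (PLAU), held at the cell surface by its receptor PLAUR, turns plasminogen into plasmin, which in turn cuts matrix and activates other protease precursors. In bone, cells of the osteoblast lineage use these enzymes to remodel a collagen I matrix, and in osteosarcoma they are studied for their part in invasion.

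The arrays differed by replicate number. The replicate 2 arrays, of which there is none at 12 h, had median signals of 47.49 (6 h) and 50.87 (untreated), where the 6 others had 14.2 to 24.95, so dim probe sets read higher on them. The 3′ to 5′ ratio of ACTB, a measure of RNA integrity that rises with degradation, was 2.286 and 1.729 for 12 h and 6 h replicate 1 and lay between 1.125 and 1.38 for all others. The same ratio of GAPDH lay between 0.9266 and 1.038 on all 8 arrays, with 1.038 and 0.9778 on 12 h and 6 h replicate 1. Of the osteoblast markers, RUNX2 (1411 to 2350), COL1A1 (2764 to 4801) and SPARC (1319 to 2556) were bright on all 8 arrays, while IBSP (32.15 to 77.43) and SPP1 (14.51 to 94.16) were dim. Of the leukocyte markers, PTPRC (0.4734 to 80.56) and CD53 (12.27 to 104.4) passed the filter on dim genes described below and LCP2 (0.3517 to 84.11) did not. Of the endothelial markers, PECAM1 passed it (13.68 to 142.9) and CDH5 (0.7735 to 19.2) and VWF (1.657 to 43.91) did not. PTPRC, CD53 and PECAM1 had their highest values on both replicate 2 arrays. Of the macrophage and osteoclast markers, CD14 (0.6095 to 17.32) did not pass the filter and CTSK (34.79 to 84.37) did. KRT18, an epithelial keratin, ran from 341.7 to 2064, with its highest value on 6 h replicate 1. The p53 gene itself was not analysed here.

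No member passed the test in any comparison. Genes entered the test when their log2 signal averaged more than 4.216 across the arrays, and with limma and Benjamini-Hochberg adjustment over 12063 genes at 0.05, 0 of the 9 tested members were higher and 0 lower after 6 h, after 12 h and at 12 h against 6 h. The background was the same, with 0% of all genes called in each comparison, in either direction and also with the replicate number as a block. MMP1, the interstitial collagenase, was the member under the filter. At an unadjusted p under 0.05, 0 members were found in each comparison, against 0.655%, 0.613% and 0.73% of all genes for 6 h, for 12 h and for 12 h against 6 h. With the block, which compares arrays of the same number, these counts were 0, 2 and 1 of 9 members, against 4.09%, 2.17% and 2.46% of genes. The 2 at 12 h were MMP14 and TIMP2, and the 1 at 12 h against 6 h was TIMP2.

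**Figure D1:**
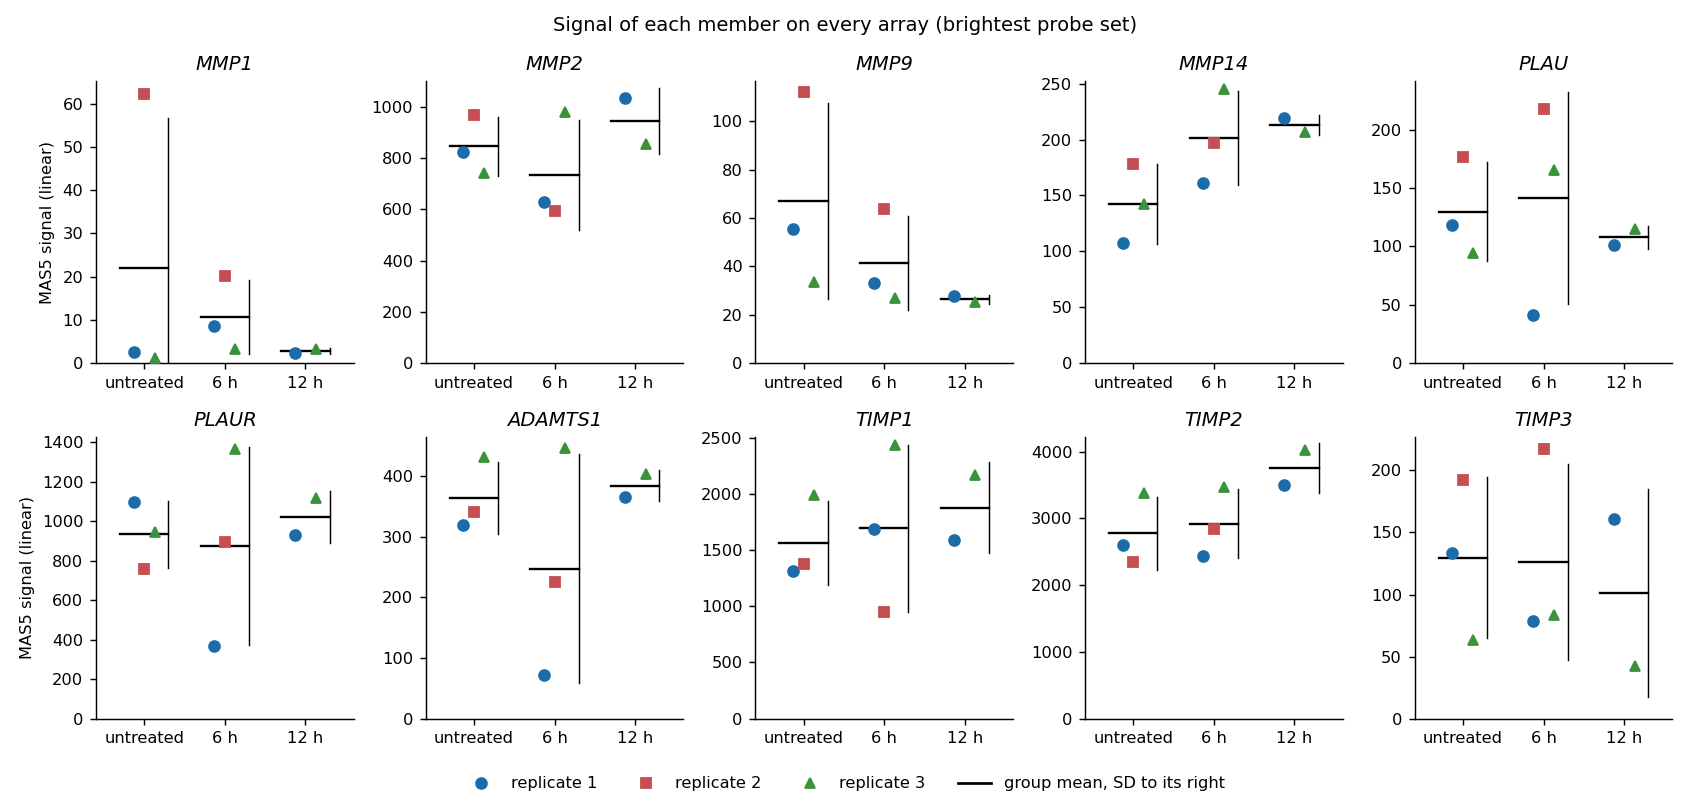
MAS5 signal (vertical axes, linear, starting at 0) of the brightest probe set of each of the 10 members on the 8 arrays, by time of treatment (horizontal axes). Symbols mark the replicate number, the horizontal line is the group mean and the thin vertical line runs 1 SD to each side of it, cut at 0. MMP14 lay at 219.2 and 206.9 after 12 h, above all 3 untreated arrays, and ADAMTS1 read 71.37 on a single 6 h array.

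The promoters of 3 members that the results below turn on are shown first. MMP14 is shown because its signal stood higher in both treated groups, and PLAU and PLAUR because their signals were lowest on the same array. Each is the RefSeq sequence (GRCh38.p14) from 250 bases before to 50 bases after an annotated start, 5′ to 3′ along the gene, with capitals for the motifs found by a search of both strands.
MMP14 (chr14:22836335-22836634, + strand): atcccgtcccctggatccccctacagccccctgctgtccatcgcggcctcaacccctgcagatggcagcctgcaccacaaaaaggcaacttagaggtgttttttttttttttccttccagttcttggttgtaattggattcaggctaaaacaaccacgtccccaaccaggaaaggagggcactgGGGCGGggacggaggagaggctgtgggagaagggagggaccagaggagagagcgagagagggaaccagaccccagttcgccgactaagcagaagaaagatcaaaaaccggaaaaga
PLAU (chr10:73910882-73911181, + strand): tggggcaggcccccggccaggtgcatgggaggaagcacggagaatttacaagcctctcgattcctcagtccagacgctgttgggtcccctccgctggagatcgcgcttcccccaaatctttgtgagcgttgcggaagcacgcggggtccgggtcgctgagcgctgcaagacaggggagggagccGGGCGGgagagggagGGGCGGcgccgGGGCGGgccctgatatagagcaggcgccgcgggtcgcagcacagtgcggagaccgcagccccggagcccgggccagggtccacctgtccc
PLAUR (chr19:43670120-43670419, - strand): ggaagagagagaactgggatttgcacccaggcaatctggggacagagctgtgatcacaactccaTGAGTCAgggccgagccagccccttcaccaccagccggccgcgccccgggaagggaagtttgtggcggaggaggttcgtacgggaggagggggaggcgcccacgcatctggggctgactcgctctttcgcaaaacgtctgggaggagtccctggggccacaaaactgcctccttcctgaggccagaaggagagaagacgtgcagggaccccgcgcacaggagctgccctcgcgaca
The letters searched were TGAGTCA, a site of AP-1 (the FOS and JUN factors), GGGCGG, the GC box read by SP1, and TATAAA, the TATA box, and no matches overlapped. PLAUR had an AP-1 match that begins 186 bases before the start, and 4.95% of 35116 RefSeq promoters of the same length hold one. PLAU had GC box matches at 66, 51 and 40 bases before this start and none of the 3 motifs at its other listed start. MMP14 had a GC box at 66 bases before its start, and 45% of all promoters hold one. TATAAA was in none of these and in 11.5% of all promoters. Of the 6 promoters listed for 5 members, TIMP1 and TIMP3 were the others with a GC box. No promoter was listed for MMP1, MMP2, MMP9, ADAMTS1 and TIMP2, so none of these was searched for the motifs.

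MMP14, the membrane-bound collagenase that activates MMP2, stood higher in treated cells without passing the test. Its brightest probe set, 160020_at, read 107.3, 178.6 and 142.3 in untreated cells, 161.5, 196.8 and 245.5 after 6 h and 219.2 and 206.9 after 12 h. Both 12 h arrays lay above every untreated array, and the 6 h arrays overlapped the untreated ones. The means were 213 ± 8.69 (SD, n = 2) after 12 h, against 142.7 ± 35.7 (SD, n = 3) without treatment, and the fitted log2 difference was 0.61 ± 0.33 (SE), or 1.52-fold (limma adjusted p = 0.9999). After 6 h the mean was 201.3 ± 42.2 (SD, n = 3), a log2 difference of 0.51 ± 0.29 from untreated cells, or 1.42-fold (limma adjusted p = 0.9999). The means at 12 h and 6 h differed by 0.10 ± 0.33 on the log2 scale, under the spread.

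Within replicate numbers, MMP14 differed by 0.59, 0.14 and 0.79 at 6 h (numbers 1, 2 and 3) and by 1.03 and 0.54 at 12 h (numbers 1 and 3). It was the only tested member above 0 in all 3 pairs at 6 h, a pattern of 13.6% of all genes. At 12 h 4 of 9 members were above 0 in both pairs, against 34% of genes, namely MMP2, MMP14, TIMP1 and TIMP2. At 12 h against 6 h TIMP2 was above 0 in both pairs, against 26% of genes, and MMP9 and TIMP1 were below 0 in both, against 23.6%. Both times share the untreated arrays. With the block the 12 h difference was 0.69 ± 0.26 (unadjusted p = 0.0277, limma adjusted p = 0.9998).

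MMP14 has 3 further probe sets, all above the filter, and their differences were above 0 at both times. At 6 h they were 0.69 ± 0.47 for 202827_s_at, 0.22 ± 0.49 for 202828_s_at and 0.50 ± 1.09 (SE) for 217279_x_at. At 12 h they were 0.08 ± 0.52, 0.71 ± 0.54 and 0.71 ± 1.22 in the same order. The array values of these sets scatter more than those of 160020_at. Set 217279_x_at, whose suffix marks probes that can bind other transcripts, ran from 6.002 to 124.5, and the log2 signals of the 3 sets correlated with 160020_at at 0.55, 0.57 and 0.5 over the 8 arrays.

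TIMP2, the inhibitor that bridges MMP14 and the MMP2 precursor, was among the brightest probe sets of the array, at the 99.3 percentile by mean log2 signal. Set 231579_s_at read 2598, 2346 and 3387 in untreated cells, 2444, 2848 and 3476 after 6 h and 3494 and 4023 after 12 h. The 12 h arrays lay above all untreated arrays and, by a narrow margin, above all 6 h arrays. After 12 h the mean was 3758 ± 374 (SD, n = 2), against 2777 ± 543 (n = 3) without treatment, and the log2 difference was 0.45 ± 0.25 (SE), or 1.37-fold (limma adjusted p = 0.9999). Against the 6 h mean of 2923 ± 520 (SD, n = 3) it was 0.37 ± 0.25 (adjusted p = 1), and between 6 h and untreated cells 0.08 ± 0.23 (adjusted p = 0.9999). With the block the 12 h difference was 0.39 ± 0.12 (unadjusted p = 0.0126, limma adjusted p = 0.9998) and that from 6 h 0.31 ± 0.12 (unadjusted p = 0.0335, adjusted p = 0.9721).

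The other TIMP2 probe sets ran the same way at 12 h. Set 224560_at read 1400, 1201 and 1589 in untreated cells, 1190, 1257 and 2308 after 6 h and 1834 and 2231 after 12 h, with a 12 h difference of 0.54 ± 0.31 (SE). Set 203167_at read 435.6, 355.8 and 512.4 in untreated cells, 252.6, 384.5 and 572.1 after 6 h and 500.5 and 595.9 after 12 h, with a 12 h difference of 0.35 ± 0.34. At 6 h these sets differed from untreated cells by 0.12 ± 0.27 and -0.17 ± 0.31. All 3 sets followed one another over the arrays, at correlations of 0.9 and 0.87 with the brightest.

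MMP2, the gelatinase that MMP14 activates, showed no order beyond its spread. Set 201069_at read 825.1, 970.2 and 742.5 in untreated cells, 630.3, 593 and 981.4 after 6 h and 1036 and 855.2 after 12 h, and all 3 groups overlapped. The log2 differences from untreated cells were -0.23 ± 0.25 (SE) at 6 h and 0.16 ± 0.28 at 12 h (limma adjusted p = 0.9999 for each). The remaining MMP2 sets were dim and did not follow it. Set 1566677_at ran from 0.9422 to 12.43, under the filter, and 1566678_at from 5.943 to 104.5, with its highest values on both replicate 2 arrays. Their correlations with 201069_at were -0.41 and -0.21, and averaging the sets in place of taking the brightest turned the 12 h value of MMP2 to -0.85.

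MMP9, the other gelatinase, stood lower in treated cells without passing the test. Its probe set, 203936_s_at, read 55.54, 112.1 and 33.58 in untreated cells, 33.25, 63.58 and 27.09 after 6 h and 27.69 and 25.12 after 12 h. The 12 h arrays lay below every untreated array, and each replicate 2 array was the highest of its group. The means were 26.41 ± 1.82 (SD, n = 2) after 12 h, against 67.09 ± 40.5 (SD, n = 3) without treatment, and the fitted log2 difference was -1.17 ± 0.65 (SE), or 0.444-fold (limma adjusted p = 0.9999).

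After 6 h MMP9 averaged 41.3 ± 19.5 (SD, n = 3), a log2 difference of -0.62 ± 0.58 from untreated cells (limma adjusted p = 0.9999). Within numbers it differed by -0.74, -0.82 and -0.31 at 6 h and by -1.0 and -0.42 at 12 h. It was the only tested member below 0 in all 3 pairs at 6 h and in both at 12 h, against 10.4% and 25% of all genes. No 12 h array pairs with the untreated replicate 2 array, on which MMP9 was highest, and with the block the 12 h difference was -0.76 ± 0.40. Without the untreated replicate 2 array the 6 h value was -0.16. MMP9 has a single probe set, at the 65.6 percentile, so no second set bears on these values.

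Arrays of the groups did not overlap, at 12 h against untreated, for 2 of 9 tested members on the higher side (MMP14 and TIMP2) and for 1 on the lower side (MMP9). The background was 9.6% and 4.89% of genes. At 6 h no member had separate groups, against 2.03% higher and 1.51% lower. At 12 h against 6 h, 1 of 9 was higher (TIMP2), against 7.1%, and 0 were lower, against 4.5%.

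**Figure D2:**
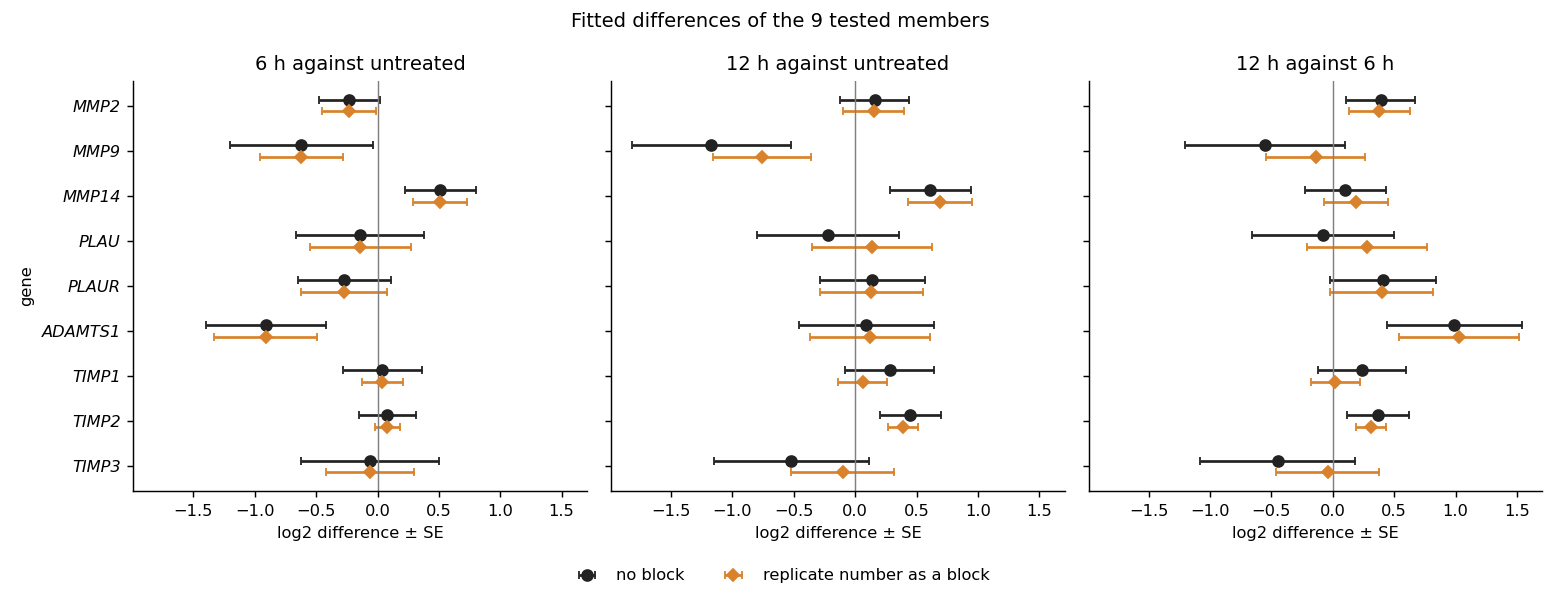
Fitted log2 differences (horizontal axes, bars ± 1 SE) of the 9 tested members in the 3 comparisons, without and with the replicate number as a block. At 12 h MMP14 stood at 0.61 and TIMP2 at 0.45 without the block, MMP9 at -1.17, and none passed after adjustment.

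MMP1, which cuts fibrillar collagen, was near the bottom of the scale. Its probe set, 204475_at, read 2.489, 62.09 and 1.243 in untreated cells, 8.615, 20.01 and 3.289 after 6 h and 2.269 and 3.24 after 12 h. The highest values of both groups that have a replicate 2 array came from it, and mean log2 signal was 5.14 on the replicate 2 arrays and 1.72 on the others. At the 13.7 percentile, with a mean log2 signal of 2.58 under the filter of 4.216, it was not tested. MMP9, at 5.37, was the tested member nearest to that filter.

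PLAU, PLAUR and ADAMTS1 read lowest on the same array. ADAMTS1, a secreted protease that cuts the proteoglycans aggrecan and versican, read 319.3, 341.1 and 432.5 in untreated cells, 71.37, 225.1 and 446.3 after 6 h and 366.4 and 403.1 after 12 h with set 222162_s_at. The low 6 h value is replicate 1, while 6 h replicate 3 is the highest of the 8 arrays. After 6 h the mean was 247.6 ± 189 (SD, n = 3), against 364.3 ± 60 (n = 3) without treatment, and the log2 difference was -0.91 ± 0.49 (SE, limma adjusted p = 0.9999). Without 6 h replicate 1 it was -0.19. After 12 h ADAMTS1 differed from untreated cells by 0.09 ± 0.55, and from 6 h by 0.99 ± 0.55 (adjusted p = 1), which became 0.28 without 6 h replicate 1. The second set, 222486_s_at, also had its lowest value, 8.384, on 6 h replicate 1 and its highest, 145.1, on 6 h replicate 3.

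PLAUR, the urokinase receptor, was bright, at the 96.4 percentile. Set 210845_s_at read 1097, 759.9 and 946.3 in untreated cells, 366.8, 895.1 and 1369 after 6 h and 929.3 and 1116 after 12 h. As with ADAMTS1, 6 h replicate 1 was the lowest of the 8 arrays and 6 h replicate 3 the highest. The log2 differences from untreated cells were -0.27 ± 0.38 (SE) at 6 h and 0.14 ± 0.43 at 12 h, neither beyond the spread, and the 6 h value was 0.26 without 6 h replicate 1. Sets 211924_s_at and 214866_at followed the first, at correlations of 0.98 and 0.95, and had 248.5 and 62.35 on 6 h replicate 1 against 478 to 1118 and 140.5 to 204.7 on the other arrays.

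PLAU, urokinase itself, read 118, 177 and 94.35 in untreated cells, 41.08, 218.1 and 165.1 after 6 h and 101 and 114.8 after 12 h with set 205479_s_at. The lowest array was again 6 h replicate 1, but the highest were the replicate 2 arrays. The log2 differences were -0.14 ± 0.52 (SE) at 6 h and -0.22 ± 0.58 at 12 h, and the 6 h value turned to 0.60 without 6 h replicate 1. At 12 h the sign turned with the block, to 0.14 ± 0.49. Its second set, 211668_s_at, correlated with it at 0.99 and read 15.18 on 6 h replicate 1, against 37.57 to 124.8 elsewhere.

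Over the 8 arrays the log2 signals of PLAUR and ADAMTS1 correlated at 0.91, of PLAU and PLAUR at 0.7 and of PLAU and ADAMTS1 at 0.64. On the 6 arrays outside number 2 these were 0.95, 0.99 and 0.92. These are descriptions over arrays that share replicate numbers, and without 6 h replicate 1 they were 0.47, -0.15 and -0.61 over 7 arrays. That array was the lowest of the 8 arrays for 3 of the 9 tested members and for 16% of all genes. Among related proteases the sheddase ADAM12 had 87.14 on that array and 381 to 733.7 on the others. The broad protease inhibitor A2M had 2163 there and 341.4 to 605.3 on the others, and the epithelial markers summed to 2291 there and to 476.8 to 973.6 on the others. KRT18 alone gave 2064 of that sum, while EPCAM (166.5), KRT8 (51.68) and CDH1 (8.433) lay within their range on the other arrays. The osteoblast marker SP7 was also highest there, at 272.5, while SPARC was lowest, at 1319. The ACTB ratio of 1.729 belongs to the same array, where the GAPDH ratio was 0.9778. The part of the ACTB ratio in these values, like that of the markers, was not tested.

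**Figure D3:**
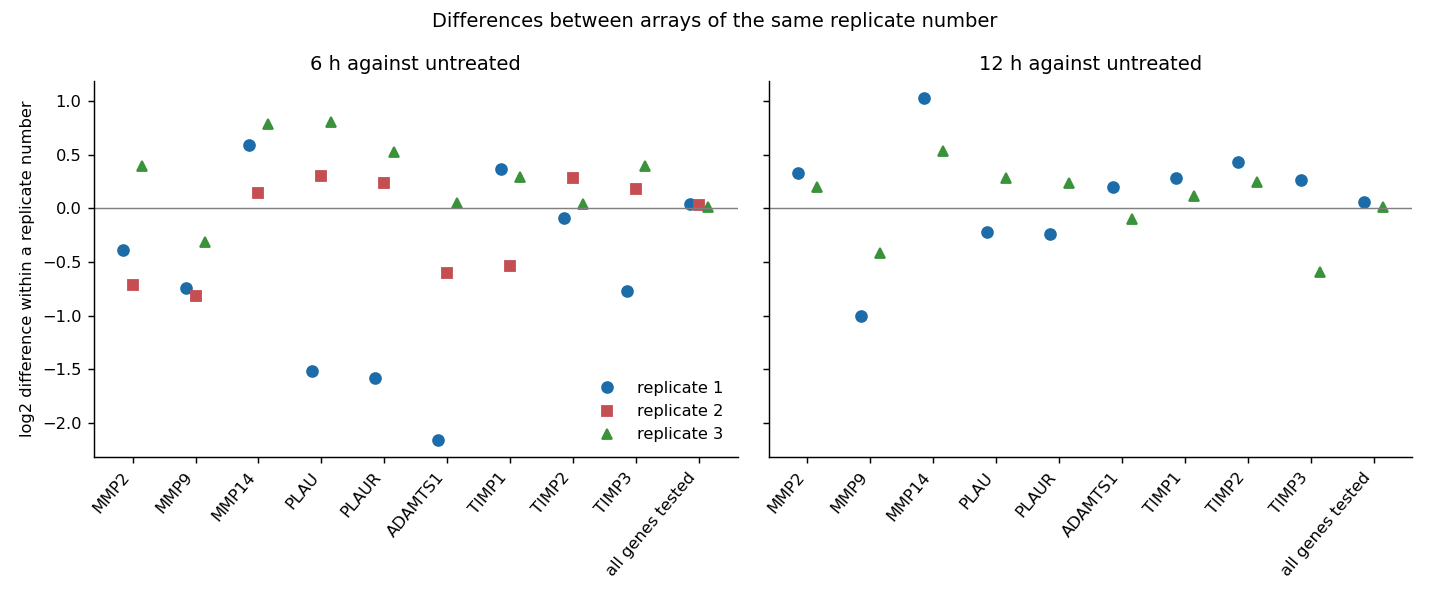
Log2 differences between arrays that share a replicate number (vertical axes) for the 9 tested members and for the median of all genes tested, at 6 h (3 pairs) and 12 h (2 pairs). ADAMTS1, PLAUR and PLAU stood at -2.16, -1.58 and -1.52 in the replicate 1 pair at 6 h, and MMP14 was above 0 and MMP9 below 0 in each pair.

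TIMP1, a soluble inhibitor of most matrix metalloproteinases, was bright and showed no difference beyond its spread. Set 201666_at read 1310, 1379 and 1992 in untreated cells, 1691, 949.7 and 2435 after 6 h and 1589 and 2166 after 12 h. In each group the replicate 3 array was the highest, and the groups overlapped. The log2 difference from untreated cells was 0.04 ± 0.32 (SE) at 6 h and 0.28 ± 0.36 at 12 h, and with the block the 12 h value was 0.06 ± 0.20.

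TIMP3, an inhibitor that binds to the matrix and also blocks ADAMTS proteases, had 4 probe sets, all below 0 at both times but with different array values. The brightest, 201150_s_at, read 133.4, 192.4 and 63.28 in untreated cells, 78.46, 217.3 and 83.24 after 6 h and 160.7 and 42.03 after 12 h. At 12 h replicate 3 was the lowest of the 8 arrays and replicate 1 lay above all but the replicate 2 arrays. The 12 h difference of -0.52 ± 0.63 (SE) became 0.45 without 12 h replicate 3 and -1.48 without 12 h replicate 1. Sets 201147_s_at and 201149_s_at correlated with it at 0.28 and 0. They differed from untreated cells by -0.78 ± 0.46 and -0.65 ± 0.57 at 6 h, where 201150_s_at gave -0.06 ± 0.57, and by -0.15 ± 0.51 and -0.92 ± 0.64 at 12 h. Both had their lowest array in 6 h replicate 1, at 38.65 and 20.98. The remaining set, 201148_s_at, ran from 6.373 to 65.04 and lay under the filter. It correlated with 201150_s_at at 0.77, with untested differences of -0.36 and -1.08.

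**Figure D4:**
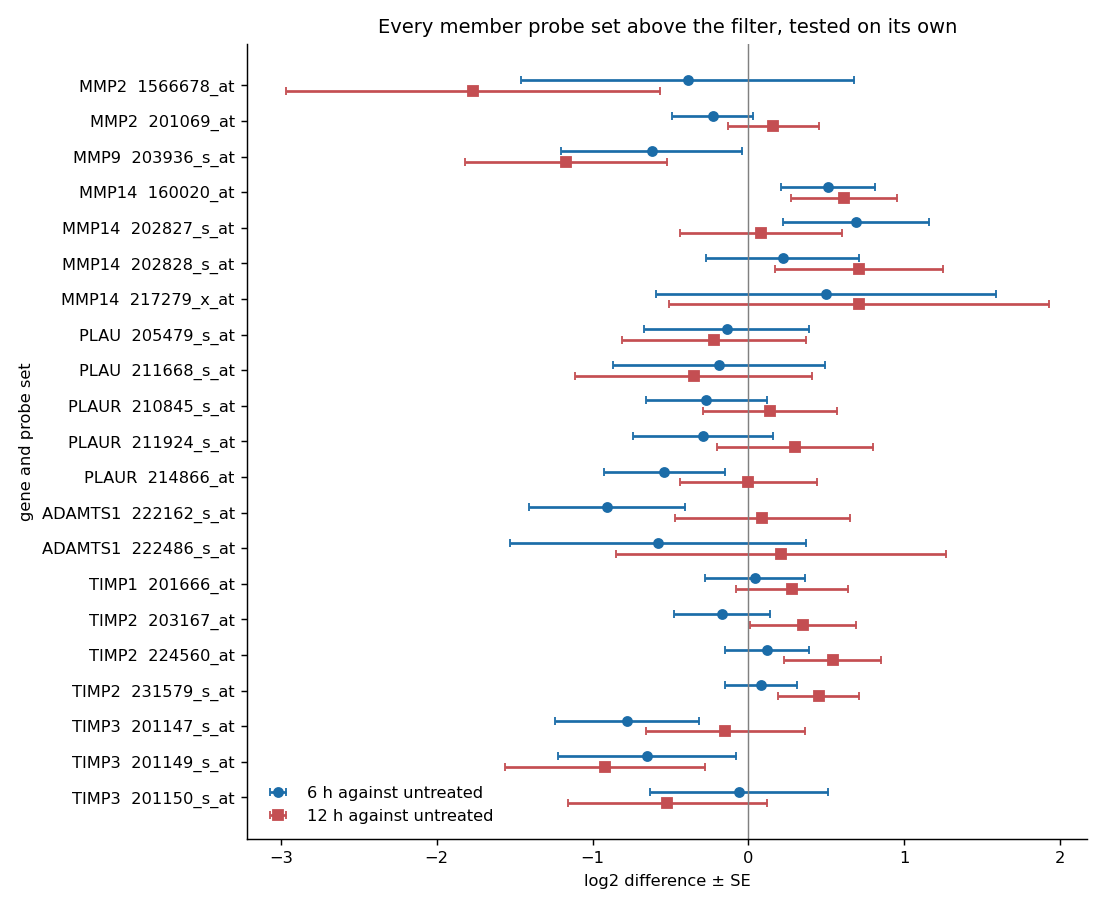
Log2 differences from untreated cells (horizontal axis, bars ± 1 SE) at 6 h and 12 h for each of the 21 member probe sets above the filter, each tested on its own. All 4 MMP14 sets and, at 12 h, all 3 TIMP2 sets stood above 0, the 3 TIMP3 sets stood below 0 at both times, and the 2 MMP2 sets had opposite signs at 12 h.

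As a set, 3 of 9 tested members were above 0 and 6 below at 6 h, with a median log2 difference of -0.14, against 0.02 for all genes tested. Without 6 h replicate 1, the array on which PLAU, PLAUR and ADAMTS1 were lowest, 5 were above and 4 below 0 at 6 h and the median turned to 0.19, against 0 for all genes. At 12 h 6 were above and 3 below 0, with a median of 0.14 against 0.08. At 12 h against 6 h 6 were above and 3 below 0, with a median of 0.24 against 0.06. Without 6 h replicate 1 that split was 4 above and 5 below, and the median -0.05 against 0.08. Of all genes tested, 53% were above 0 at 6 h, 59.9% at 12 h and 57.2% at 12 h against 6 h.

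Related genes were taken from lists written from textbook knowledge, and none passed the test. Of 19 other matrix metalloproteinases 18 had a value, and only MMP11, MMP16 and MMP25 passed the filter. MMP16, another membrane-bound member, averaged 36.59 ± 29 (SD, n = 3) after 6 h and 49.44 ± 6.99 (n = 3) in untreated cells. The 6 h arrays read 3.067, 54.18 and 52.52, and without the low one, replicate 1, the log2 difference turned to 0.12 from -1.25. MMP11, also called stromelysin-3, had log2 differences of -0.50 ± 1.01 (SE) at 6 h and -0.26 ± 1.13 at 12 h. All 3 lay below 0 at both times, with medians of -0.50 and -0.26, against 0.02 and 0.08 for all genes, but this direction was not stable. With the replicate block all 3 lay above 0 at 12 h, with a median of 0.20 (MMP11 0.20, MMP16 0.15 and MMP25 0.29). MMP11 and MMP25 were highest on untreated replicate 2 (133.6 and 103.2), which has no partner at 12 h, and without that array 2 of 3 lay above 0 at each time, with medians of 0.20 at 6 h and 0.31 at 12 h.

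Of 7 further inhibitors 3 were tested. RECK, a membrane-anchored inhibitor of several of these proteases, averaged 233.1 ± 53.9 (SD, n = 3) after 6 h and 306.2 ± 19.6 (n = 3) without treatment, with a log2 difference of -0.42 ± 0.26 (SE), and 332.8 ± 17.6 (SD, n = 2) after 12 h. Its 6 h arrays read 185.5, 222.3 and 291.6, lowest on replicate 1. A2M had a 6 h difference of 0.93 ± 0.45, and 0.27 without 6 h replicate 1. Of 12 genes of the plasminogen system 6 were tested, with 4 above and 2 below 0 at 12 h (median 0.14, against 0.08 for all genes). Without 12 h replicate 3 the split was 2 above and 4 below (median -0.02 against 0.13). S100A10, which binds plasminogen at the cell surface with ANXA2, averaged 6112 ± 2050 (SD, n = 2) after 12 h and 4843 ± 1370 (n = 3) in untreated cells. Its log2 difference of 0.33 turned to -0.02 without 12 h replicate 3, the higher of the 2 arrays at 12 h. SERPINE2, a serpin that inhibits urokinase, averaged 394.2 ± 80.3 (SD, n = 2) at 12 h and 278.7 ± 45.2 (n = 3) at 6 h, a log2 difference of 0.50 ± 0.28 (SE). It read 451 at 12 h and 246.5 at 6 h in replicate 1, but 337.3 and 330.3 in replicate 3.

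Of 18 other ADAMTS genes 8 were tested, split 4 to 4 at both times. Neither split was stable. Above 0 were 7 of 8 at 6 h without 6 h replicate 1, but 1 of 8 without 6 h replicate 2 (median -0.81 against 0.05 for all genes). At 12 h it was 7 of 8 with the block, but 3 of 8 without 12 h replicate 1. ADAMTS5, an aggrecanase, averaged 78.59 ± 61.1 (SD, n = 3) after 6 h and 106.7 ± 21.1 (n = 3) in untreated cells. Its log2 difference of -0.77 was -0.11 without 6 h replicate 1. Of 9 ADAM sheddases 7 were tested, with 4 above 0 at 6 h and 6 at 12 h (medians 0.08 and 0.14, against 0.02 and 0.08 for all genes). With the block 4 of 7 were above 0 at 12 h. ADAM12 averaged 394.5 ± 314 (SD, n = 3) after 6 h and 581.9 ± 56.8 (n = 3) in untreated cells. Its log2 difference of -1.01 was -0.15 without 6 h replicate 1. ADAM17, which releases TNF from the membrane, averaged 241.6 ± 103 (n = 2) after 12 h and 191.9 ± 44.8 (n = 3) in untreated cells, and its log2 difference of 0.29 turned to -0.16 without 12 h replicate 1. Of 12 activators and partners 10 were tested, with 7 above 0 at each time and medians of 0.07 and 0.21, against 0.02 and 0.08 for all genes. Without untreated replicate 2 the count was 5 of 10 at each time, with medians of 0.04 at both. FURIN, the convertase that activates the MMP14 precursor, averaged 97.23 ± 56.4 (SD, n = 3) after 6 h and 77.84 ± 43.9 (n = 3) in untreated cells, and its log2 difference of 0.32 turned to -0.12 without 6 h replicate 2.

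The genes whose log2 signals followed each member most closely over the 8 arrays were ADAM12 for ADAMTS1 (r = 0.992), JAGN1 for PLAUR (0.982), TMEM54 for PLAU (0.989), PPP6R1 for MMP14 (0.958), KNG1 for MMP9 (0.983) and RALY for MMP2 (0.972). They were NUP85 for TIMP1 (0.986), LRRC59 for TIMP2 (0.968) and XDH for TIMP3 (0.991). With 8 arrays and 12063 genes such values are a description only, and the arrays share replicate numbers.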

How the data were processed

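RNA from Saos-2 cells was hybridised as biotin-labelled cRNA to Affymetrix arrays, 1 per sample, per the labels' protocols. The authors deposited MAS5 intensity values, which are not logged, per the submitters' processing notes, and no version is given in the sources used here. Here, 62 of 54675 probe sets were left out as controls. Each gene was read from its brightest probe set with 1 symbol. Signals under 2.385, the 10th percentile, were set to it before log2, which understates changes of dim genes. Genes whose mean log2 signal exceeded 4.216, the median probe set, were tested with limma 3.58.1 (R 4.3.3; lmFit, eBayes with a variance trend, all 3 groups in 1 fit, two-sided). The scripts were tested on simulated data. The members, lists and tests were chosen with earlier results of these data known.

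All 10 members and, of each list, up to 3 genes with the smallest p per comparison could be named; those shown were picked among them after their values were seen. Deviations from group means correlated at 0.108 to 0.637 in the 7 same-numbered pairs of arrays and at -0.576 to 0.333 in 14 other pairs. Deviations cancel out within a group, so these ranges depend on one another. The 12 h replicate 1 array correlated at 0.159 and 0.108 with its own number and at 0.295 and 0.333 with the replicate 2 arrays. The labels state no pairing. The numbers were treated as pairs, and a second fit of each comparison had the number as a block. No pair of arrays shared more than 1 identical value. The number of arrays limits the precision.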

Additional observations from a re-analysis of the deposited data

How the results depend on the processing

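No alternative called a member or any other gene. The counts were 0 in each comparison under all 23 alternatives, which included quantile normalization, centring, other floors and filters, averaged or single probe sets, array weights, leaving out both replicate 2 arrays, and leaving out each array in turn (0 to 0 throughout). With the replicate block the counts were also 0, and the block changed no call. The smallest adjusted p of a member was 0.7511 at 6 h, 0.486 at 12 h and 0.8151 between the times. Of 197 recomputed member differences per comparison, 21, 17 and 21 changed sign, none of them called. MMP14 stayed between 0.32 and 0.81 at 6 h and between 0.42 and 1.19 at 12 h, MMP9 between -1.03 and -0.16 and between -1.58 and -0.59, and TIMP2 at 12 h between 0.32 and 1.03. Centring each array on its median gave the highest 12 h values. It moved the median of all genes at 12 h to 0.66, against 0.08 as deposited, and relative to that median MMP14, MMP9 and TIMP2 stood at 0.52, -1.25 and 0.37 under both, and at 0.44, -0.89 and 0.26 after quantile normalization. Of the sign changes, 0, 2 and 3 came under centring. One is MMP9 at 12 h against 6 h, at 0.04 centred and -0.55 as deposited, which relative to the median of all genes (0.65 and 0.06) stood at -0.61 under both. The block and the left-out arrays for the whole set, the lists and their genes were chosen after seeing the data. Only 2 arrays at 12 h and the dim signals of MMP1 and MMP9 limit what can be seen.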

Other observations

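Cathepsins and cystatins, the lysosomal proteases and their inhibitors, had 12 of 15 members tested, of which 7 were above 0 at 6 h and 10 at 12 h (medians 0.10 and 0.13, against 0.02 and 0.08 for all genes), and none passed with limma. Without untreated replicate 3, 5 of 12 were above 0 at 6 h (median -0.12 against 0.02). At 12 h 8 were above 0 without untreated replicate 1 (median 0.06 against 0.10). CTSL, a cysteine protease that is also secreted, averaged 999.9 ± 275 (SD, n = 2) after 12 h and 772.1 ± 300 (n = 3) in untreated cells, with a log2 difference of 0.42, and 0.13 with the block. CTSB averaged 356.3 ± 8.7 (n = 2) after 12 h and 305.9 ± 39.2 (n = 3) in untreated cells. CTSS had a log2 difference of 1.60 ± 0.82 (SE) at 6 h, from a dim signal of 64.82 ± 46.7 (SD, n = 3) against 20.06 ± 13.5 (n = 3).

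Transcription factors known to act on protease promoters had 14 of 17 members tested, and none passed. Of these, 11 were above 0 at 12 h (median 0.18 against 0.08) and 12 at 12 h against 6 h (median 0.23 against 0.06). Without 12 h replicate 1, 7 were above and 7 below 0 at 12 h (median 0.01 against 0.04). At 12 h against 6 h the split was then 6 above and 8 below (median -0.06 against 0.02). SP1, which reads GC boxes, averaged 462.6 ± 89.9 (SD, n = 2) after 12 h and 294.4 ± 89.5 (n = 3) without treatment, with a log2 difference of 0.69 ± 0.36 (SE), and 0.41 with the replicate block or without untreated replicate 2. The AP-1 member FOSL2 averaged 394.6 ± 95.5 (SD, n = 3) after 6 h and 538.2 ± 32 (n = 3) in untreated cells, and JUN 827.7 ± 30.4 (n = 2) at 12 h and 634.2 ± 105 (n = 3) at 6 h. The log2 differences were -0.47 ± 0.26 (SE) for FOSL2 and 0.40 ± 0.26 for JUN. Both genes had their lowest value on 6 h replicate 1, at 313.5 and 539.2. FOS and FOSB, also of AP-1, lay under the filter.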
